A study of Mus musculus with 16 samples.

Results

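Transcripts of 40 mouse genes that act in mitosis and in the G2/M transition were followed in B1b cells and aortas of ApoE-/- mice, a strain prone to atherosclerosis. The 40 genes were taken by symbol from the count table, at 1 transcript per gene, and all 40 were found among its 24562 entries. Libraries of sorted B1b cells, innate-like B cells obtained from the peritoneal cavity, carried the genotype label wt (wild type, 3 libraries) or cre (3 libraries). Whole aortas carried the same labels, with 5 libraries each. The series describes its mutant mice as lacking CD40 in B cells alone, a TNF-family receptor through which B cells take signals from T cells. Every group, wild type included, was on the ApoE-/- background. The sources used here do not give the Cre driver, the altered part of Cd40, or the age, sex and diet of the mice. The question that the comparisons address is how the lack of CD40 on B cells alters gene expression in B1b cells and in the aorta.

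At 1 transcript per gene, libraries held 6815829 to 9911226 counts in B1b cells and 1645926 to 7300894 in aortas. The smallest were wild-type aorta replicate 5 (1979777) and cre aorta replicate 2 (1645926). The 40 genes took 1494 to 5078 counts of a B1b library and 554 to 3555 of an aortic one, and in these 2 aortas 20 of the genes had fewer than 10 counts each, so that their levels there are imprecise. Cd40 stood at 33.9 to 38.2 CPM (counts scaled to a library of common size) in wild-type B1b cells and at 29.0 to 38.6 CPM in those labelled cre, a log2 difference of -0.16 (SE 0.14, adjusted p = 0.679, edgeR quasi-likelihood). In aortas Cd40 was at 4.76 to 11.97 CPM in wild type and 1.78 to 8.64 CPM in cre. Counts over a whole transcript do not show whether part of it was removed, so Cd40 does not check the labels, and libraries are called by their label here. The 10 B cell markers summed to 8315 to 9394 CPM in B1b libraries and to 225 to 391 CPM in aortas. The 10 smooth muscle markers summed to 13.7 to 25.1 CPM in B1b libraries and to 9760 to 24959 CPM in aortas. The labels do not tie each library to an animal of its own, and p-values therefore cover no more than library-to-library spread, which may be technical.

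During G2 a cell that has copied its DNA builds up cyclin B, which binds the kinase Cdk1 and carries the cell into mitosis. There the kinetochores attach chromosomes to the spindle, a checkpoint delays separation until all are attached, the anaphase-promoting complex then destroys cyclin B, and a contractile ring parts the daughter cells. Most of these genes are transcribed only late in the cycle, under the transcription factors FoxM1 and B-Myb with the MuvB complex, and are held down in resting cells by the DREAM complex. Their transcripts therefore serve widely as a measure of the fraction of cells that divide. B1b cells are long-lived and renew themselves slowly in the peritoneal cavity, and in the aorta smooth muscle, endothelial, stromal and immune cells divide at low rates. In a bulk sample, fewer dividing cells and less of each transcript per dividing cell cannot be told apart.

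The genes fall into 9 roles. Cdk1, its cyclins Ccna2, Ccnb1 and Ccnb2, the transcription factor Foxm1 and Cdca3 act in mitotic entry. Aurka, Plk1, Melk and Pbk are mitotic kinases. Aurkb, the survivin gene Birc5 and the borealin gene Cdca8 encode the chromosomal passenger complex. Bub1, Bub1b, Mad2l1 and Ttk belong to the spindle checkpoint. Cdc20 activates the anaphase-promoting complex, and Ube2c is its ubiquitin-conjugating enzyme. Cenpa, Cenpe, Cenpf, Ndc80, Nuf2 and Spc25 build the centromere and kinetochore. Kif11, Kif2c, Kif4, Tpx2, Nusap1, Hmmr, Dlgap5 and Ckap2l are spindle motors and microtubule binders. Kif20a, Kif23, Prc1, Anln and Cep55 act in cytokinesis. Mki67, which coats mitotic chromosomes, and Top2a, which untangles DNA, complete the set. In the GENCODE annotation, exons of other genes on the opposite strand cover 17.2% of Ccna2 (Exosc9), 16.7% of Kif4 (Pdzd11), 26.4% of Kif20a (Cdc23) and 26.9% of Prc1 (Rccd1). The sources used here do not say whether reads were counted by strand, so the levels of these 4 genes are uncertain. Ccnb1, Ccnb2 and Kif4 have pseudogenes in the RefSeq gene table, which could share their reads.

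The start regions of these genes carry a known pair of elements, the CCAAT box and the cell cycle gene homology region (CHR), a site of the DREAM and MuvB complexes. The RefSeq promoter table, on GRCm38.p6, held a window for 33 of the 40 genes. In the 250 bases before the start, on either strand, CCAAT was found in 24 of the 33 windows (72.7%) and in 34.5% of all 27025 windows. The CHR letters TTTGAA were found in 9 (27.3%) against 16.3% of all, the variant TTCGAA in 2 (6.06%) against 1.34%, and the E2F site letters TTTGGCGC or TTTCGCGC in 1 (3.03%) against 0.674%. A CCAAT box together with either form of the CHR stood in 9 windows (27.3%) and in 6.21% of all. A pair of CCAAT boxes on the same strand 30 to 35 bases apart stood in 8 windows (24.2%) and in 1.15% of all, a spacing that was chosen after the windows had been seen. Overlapping matches were counted, and in the Ube2c window a CCAAT and a reverse-strand one share 2 letters. A match describes the letters and is not evidence of a bound site.

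Windows are printed 5′ to 3′ on the strand of the gene for 7 genes that the results below turn on, with the searched letters in capitals (the motifs above, and ATTGG and TTCAAA where CCAAT and TTTGAA lie on the other strand). Transcribed bases were left out. Cdk1, Ube2c and Cdc20 were among the genes far lower in B1b cells than in aorta, and Kif11, Top2a, Cenpf and Mki67 were among those with the highest values in 1 B1b library.
Cdk1 (chr10:69352913-69353162, minus strand): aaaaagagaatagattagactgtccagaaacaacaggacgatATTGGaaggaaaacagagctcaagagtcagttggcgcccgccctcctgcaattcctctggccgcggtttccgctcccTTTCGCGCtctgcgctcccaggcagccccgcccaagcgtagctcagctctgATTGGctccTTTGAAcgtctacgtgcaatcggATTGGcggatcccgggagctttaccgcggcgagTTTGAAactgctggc
Ube2c (chr2:164769679-164769928, plus strand): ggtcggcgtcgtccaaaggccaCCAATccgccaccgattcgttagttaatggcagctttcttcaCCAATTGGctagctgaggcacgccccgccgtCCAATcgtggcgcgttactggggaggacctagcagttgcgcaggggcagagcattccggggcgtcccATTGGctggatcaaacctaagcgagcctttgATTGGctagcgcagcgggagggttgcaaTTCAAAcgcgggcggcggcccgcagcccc
Cdc20 (chr4:118437344-118437593, minus strand): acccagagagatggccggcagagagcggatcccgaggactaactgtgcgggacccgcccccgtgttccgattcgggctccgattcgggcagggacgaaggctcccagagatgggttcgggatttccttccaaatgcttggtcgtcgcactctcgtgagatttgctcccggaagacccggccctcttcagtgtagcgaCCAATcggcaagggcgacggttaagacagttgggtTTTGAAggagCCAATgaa
Kif11 (chr19:37376132-37376381, plus strand): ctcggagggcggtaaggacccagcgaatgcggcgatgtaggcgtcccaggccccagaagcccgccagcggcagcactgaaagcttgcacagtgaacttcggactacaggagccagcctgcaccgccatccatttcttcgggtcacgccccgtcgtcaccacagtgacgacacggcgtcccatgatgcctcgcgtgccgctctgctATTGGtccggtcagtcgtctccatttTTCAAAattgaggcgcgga
Top2a (chr11:99024200-99024439, minus strand): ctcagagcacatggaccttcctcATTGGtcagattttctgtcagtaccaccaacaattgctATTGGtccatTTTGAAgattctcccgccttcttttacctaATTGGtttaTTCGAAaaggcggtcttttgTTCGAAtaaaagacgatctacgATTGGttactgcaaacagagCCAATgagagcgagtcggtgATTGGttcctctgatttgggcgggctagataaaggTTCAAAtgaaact
Cenpf (chr1:189688108-189688336, minus strand): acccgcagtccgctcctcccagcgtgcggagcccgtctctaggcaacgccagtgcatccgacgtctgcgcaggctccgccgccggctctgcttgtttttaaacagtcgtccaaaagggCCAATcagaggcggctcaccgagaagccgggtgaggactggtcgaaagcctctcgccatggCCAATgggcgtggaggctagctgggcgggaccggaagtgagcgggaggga
Mki67 (chr7:135716451-135716629, minus strand): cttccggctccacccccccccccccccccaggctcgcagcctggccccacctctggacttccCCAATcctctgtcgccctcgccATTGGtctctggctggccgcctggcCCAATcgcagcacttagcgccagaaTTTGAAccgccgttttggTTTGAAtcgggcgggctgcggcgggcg
The Cdk1 window holds 3 CCAAT boxes, 2 CHR matches and the only E2F match of the 33. Ube2c and Top2a hold 6 CCAAT boxes each, and Top2a holds 4 CHR matches of either form. The Cenpf window holds 2 CCAAT boxes and no CHR match, and the Kif11 window 1 of each, so genes with like values across libraries differ in these letters.

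In B1b cells no gene of the set passed the threshold between cre and wild type, yet most values lay above wild type and 1 cre library stood far above the others. The filter on low counts left 34 of the 40 genes (Ccnb1, Plk1, Melk, Pbk, Kif2c and Anln were too low). Of these, 0 passed an adjusted p of 0.05 (edgeR quasi-likelihood, Benjamini-Hochberg over 11732 genes), where 0.707% of all genes tested passed, 0.486% higher and 0.222% lower. The unadjusted p was under 0.05 for 11 genes higher in cre and for 1 lower, against 7.63% of all genes higher and 5.69% lower. The log2 fold change lay above 0 for 29 genes and below 0 for 5 (Aurka, Hmmr, Cenpa, Ndc80 and Dlgap5), with 49.1% of all genes above 0 and 50.9% below. The median log2 fold change over the 34 was 0.71, against -0.0049 over all genes tested.

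The summed level of the 40 genes was 224, 191 and 211 CPM in wild-type B1b cells and 279, 214 and 518 CPM in cre. Cre replicate 3 therefore stood far above the next library, cre replicate 1, while cre replicate 2 lay within the wild-type range. The group means were 209 ± 16.5 CPM (SD, n = 3) and 337 ± 160 CPM (SD, n = 3). Cre replicate 3 was the highest of the 6 libraries in 29 of the 34 genes tested, against 20.4% of all genes tested, and in 33 of the 40. The 7 genes in which it was not the highest were Cenpa, Ndc80, Birc5, Aurka, Plk1, Hmmr and Ccnb1. Without the 4 genes covered by others, the sum was 154 to 184 CPM in wild type and 237, 175 and 452 CPM in cre.

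**Figure D1:**
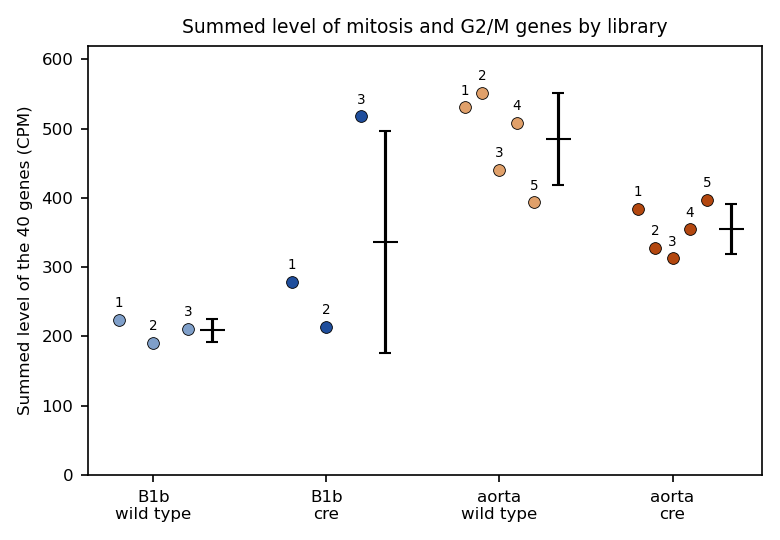
Summed CPM of the 40 genes on the vertical axis for each library, by tissue and genotype label, with the replicate number above each point and the mean ± SD beside each group (n = 3 for B1b cells, n = 5 for aortas). B1b cre replicate 3 stands at 518 CPM against 191 to 279 CPM in the other 5 B1b libraries, and the aortas labelled cre lie at 313 to 397 CPM against 394 to 551 CPM in wild type.

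Mki67 and Top2a together summed to 35.05 to 51.4 CPM in wild-type B1b cells and 70.6 to 181 CPM in cre. Mki67 stood at 27.5, 21.9 and 32.1 CPM in wild type and 51.9, 47.2 and 114 CPM in cre, so the groups did not overlap. Its log2 fold change was 1.38 (SE 0.44, 95% interval 0.22 to 2.54), with adjusted p = 0.317 (edgeR). Top2a stood at 19.1, 13.2 and 19.2 CPM in wild type and 32.03, 23.4 and 66.3 CPM in cre, again without overlap, with a log2 fold change of 1.23 (SE 0.43, 95% interval 0.14 to 2.32) and adjusted p = 0.327 (edgeR). In both genes cre replicates 1 and 2 were above every wild-type library and replicate 3 was at more than the level of any other.

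Among the kinetochore genes, Cenpf, which encodes a large protein of the outer kinetochore, had the largest fold change of the set. It stood at 2.75, 1.28 and 1.09 CPM in wild type and 4.84, 2.54 and 13.9 CPM in cre. Cre replicate 2 lay inside the wild-type range and replicate 3 was at 5.47 times the median of the other 5 libraries. The log2 fold change was 2.06 (SE 0.58, 95% interval 0.82 to 3.29), with adjusted p = 0.129 (edgeR). Spc25, a subunit of the NDC80 complex that binds microtubules, stood at 1.57, 1.53 and 0.984 CPM and 2.48, 2.11 and 4.69 CPM, without overlap (log2 fold change 1.18, adjusted p = 0.346, edgeR). Its partner Ndc80 was at 11.4, 10.6 and 12.7 CPM in wild type and 9.93, 9.72 and 11.8 CPM in cre, and the groups overlapped. Cenpa, the histone H3 variant that marks centromeres, was at 16.9, 18.7 and 17.6 CPM and 14.2, 5.64 and 18.5 CPM, with cre replicate 2 lowest. The kinetochore genes thus did not share 1 pattern.

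A spindle gene gave the smallest adjusted p of the set. Tpx2, which activates Aurora A at the spindle, stood at 5.23, 1.92 and 3.39 CPM in wild type and 8.07, 5.92 and 11.8 CPM in cre. All 3 cre libraries were above all wild-type ones, with a log2 fold change of 1.28 (SE 0.37, 95% interval 0.52 to 2.05) and adjusted p = 0.119 (edgeR). Kif11, the motor that pushes spindle poles apart, stood at 5.63, 3.45 and 4.81 CPM and 7.200, 5.21 and 19.2 CPM, with cre replicate 2 inside the wild-type range (log2 fold change 1.18, adjusted p = 0.237, edgeR). Hmmr, a microtubule binder of the spindle, went the other way at 1.44, 2.302 and 2.84 CPM and 1.49, 0.845 and 1.94 CPM, with overlap. The 7 spindle genes tested had log2 fold changes from -0.62 to 1.28, 5 of them above 0.

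In cytokinesis, all 4 genes tested lay above 0, from 0.23 to 1.04. Prc1, which bundles microtubules of the central spindle, stood at 5.23, 4.73 and 4.81 CPM in wild type and 11.3, 5.49 and 11.8 CPM in cre, without overlap (log2 fold change 0.94, adjusted p = 0.158, edgeR). Kif23, its motor partner in the central spindle, stood at 8.11, 5.12 and 6.998 CPM and 8.32, 11.7 and 16.8 CPM, with cre replicate 1 only just above the highest wild-type library, and on the scale fitted within B1b cells those libraries overlapped. Cep55, which acts at abscission, stood at 1.962, 1.79 and 1.86 CPM and 3.85, 2.25 and 5.51 CPM, without overlap. Cre replicates 1 and 3 held the higher values of Prc1 and Cep55, and cre replicates 2 and 3 those of Kif23.

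Checkpoint genes lay above 0 in all 4 cases, from 0.28 to 1.49. Bub1b was at 3.402, 4.22 and 4.16 CPM in wild type and 5.96, 4.93 and 11.8 CPM in cre, without overlap (log2 fold change 0.94, adjusted p = 0.237, edgeR). Bub1, a kinase of the same checkpoint, was at 2.35, 0.384 and 1.09 CPM and 2.73, 1.41 and 6.63 CPM, and the groups overlapped. Cdc20 was at 2.09, 2.05 and 1.75 CPM and 2.73, 2.25 and 4.59 CPM, which do not overlap, and Ube2c at 1.701, 1.02 and 1.75 CPM and 2.11, 1.41 and 4.18 CPM, which do.

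No gene of mitotic entry or of the passenger complex reached an unadjusted p under 0.05 (edgeR). All 5 entry genes tested lay between 0.13 and 0.79, and the 3 passenger genes between 0.35 and 0.84. Ccna2 stood at 14.8, 12.7 and 13.5 CPM in wild type and 13.03, 16.3 and 22.6 CPM in cre. Aurka, the kinase of the spindle poles, was the 1 gene lower in cre without overlap, at 5.89, 5.12 and 6.23 CPM against 3.35, 3.100 and 3.98 CPM, with a log2 fold change of -0.73 (SE 0.34, 95% interval -1.45 to -0.01) and adjusted p = 0.369 (edgeR). In all, the groups did not overlap in 8 genes that were higher in cre (10.4% of all genes tested) and in 1 that was lower (7.63%), on the CPM scale fitted within B1b cells.

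**Figure D2:**
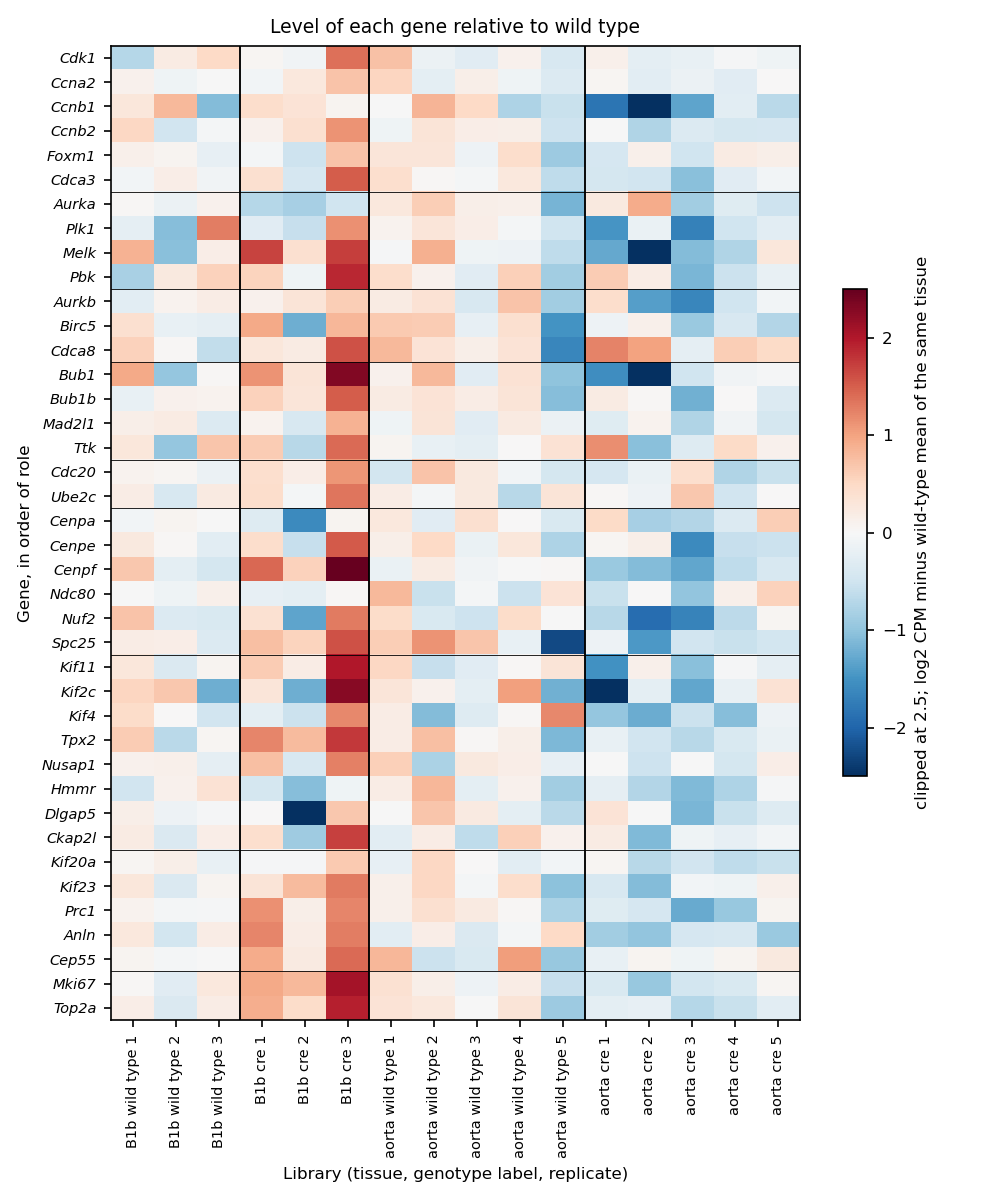
Log2 CPM of each gene (rows, in order of role) in each library (columns), minus the wild-type mean of the same tissue, with the colour scale clipped at 2.5 on either side. B1b cre replicate 3 is red in nearly every row, whereas cre replicate 2 is mixed, and most rows of the cre aortas are blue with unequal depth of colour.

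The difference was smaller without cre replicate 3. Over the 34 genes then tested, the median log2 fold change was 0.21, with 21 above 0 and 13 below. Mki67 alone passed, with a log2 fold change of 0.87 and adjusted p = 0.00721 (edgeR, 3 against 2 libraries), where 0.847% of all genes passed. Over the 12 alternatives the adjusted p of Mki67 ran from 0.00721 to 0.631 (edgeR, limma or DESeq2), and with all 6 libraries it missed, as given above. Top2a had 0.69 and adjusted p = 0.0937 without that library (edgeR), Tpx2 0.997 and Cenpf 1.11. Values that turned below 0 without it included Cdk1 at -0.12, Foxm1 at -0.28 and Nuf2 at -0.37.

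**Figure D3:**
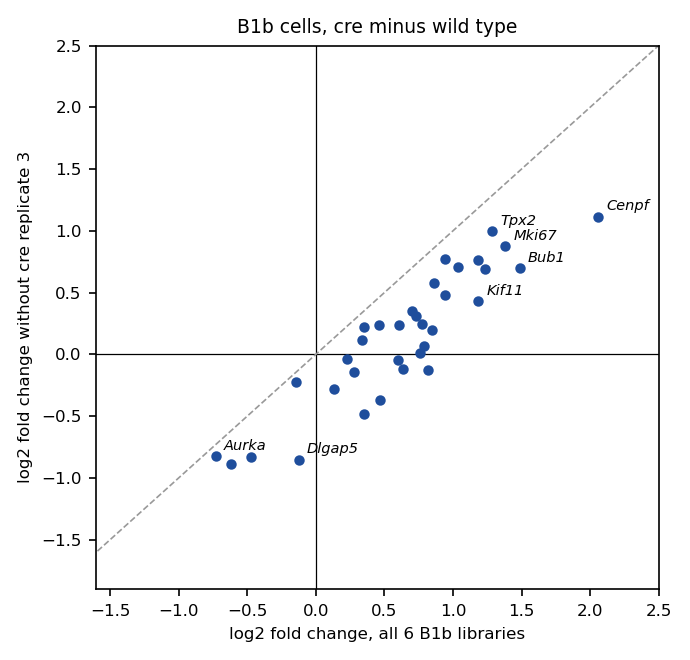
Log2 fold change (cre minus wild type) of the 34 genes tested in B1b cells, from all 6 libraries on the horizontal axis and without cre replicate 3 on the vertical axis, with the dashed line of equal values. All points lie below the dashed line, and 13 lie below 0 on the vertical axis against 5 on the horizontal one.

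Markers of other cells also differed between these B1b libraries, though not always in the libraries where the mitotic genes were highest. The 16 macrophage and monocyte markers summed to 291 to 484 CPM in wild-type B1b cells and 575 to 618 CPM in cre, with 12 of the 14 tested above 0, 5 at an unadjusted p under 0.05 and 1, Csf1r, past the adjusted threshold (adjusted p = 0.0357, edgeR). In cre replicate 3, which stood apart for the mitotic genes, they summed to 586 CPM, between cre replicates 1 and 2. The complement gene C1qa, a macrophage marker, was at 0.916 to 4.22 CPM in wild type and 4.93 to 9.93 CPM in cre. Other markers of the list overlapped. C1qc was at 3.14, 2.302 and 4.593 CPM in wild type and 1.738, 4.931 and 5.204 CPM in cre. Adgre1 was at 17.793, 17.396 and 18.808 CPM in wild type and 19.737, 11.413 and 13.775 CPM in cre. The 8 plasma cell markers together reached 863 CPM in cre replicate 3, against 693 to 821 CPM elsewhere in B1b cells, and 4 of the 7 tested lay above 0. Jchain, the joining chain of secreted IgM and IgA, was the 1 of them that passed, at 4.71, 2.17 and 6.56 CPM in wild type and 12.9, 15.8 and 18.2 CPM in cre, without overlap and highest in cre replicate 3 (adjusted p = 0.00677, edgeR). Tnfrsf17, another of these markers, was at 0 in 5 of the 6 libraries, cre replicate 3 included. The part of these cells in the mitotic values was not tested.

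In aortas most genes had lower values in cre than in wild type, and none passed. The filter left 38 genes (Ccnb1 and Ttk were too low). Of these, 0 passed an adjusted p of 0.05 (edgeR quasi-likelihood, over 13364 genes), where 0.015% of all genes tested passed, all of them higher. An unadjusted p under 0.05 was reached by 6, all lower in cre (5.72% of all genes tested were lower at that level and 6.87% higher): Anln, Cenpf, Kif20a, Top2a, Mki67 and Plk1. The log2 fold change was below 0 for 36 genes and above 0 for Cdca8 (0.47) and Ube2c (0.04), with 49.8% of all genes below 0 and 50.2% above. The median was -0.45, against 0.0023 over all genes tested.

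The summed level was 531, 551, 441, 509 and 394 CPM in wild-type aortas and 385, 328, 313, 355 and 397 CPM in cre. The groups overlapped only through wild-type replicate 5, one of the 2 small libraries. The means were 485 ± 65.9 CPM (SD, n = 5) and 355 ± 36.0 CPM (SD, n = 5). A wild-type aorta was the highest of the 10 in 33 of the 38 genes, against 43.5% of all genes tested, and wild-type replicate 2 alone in 16. The lowest was a cre aorta in 26. The last 2 counts are given without the share over all genes and only describe these genes.

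Anln, which encodes anillin of the contractile ring, had the highest mean level of the set in wild-type aorta, also per length, at 18.1 CPM per kilobase in wild type. It stood at 67.7, 91.8, 63.6, 78.4 and 116 CPM in wild type and 44.8, 40.8, 60.7, 61.4 and 42.7 CPM in cre, and every cre library was below every wild-type one. Its log2 fold change was -0.72 (SE 0.18, 95% interval -1.11 to -0.33), with adjusted p = 0.184 (edgeR). DESeq2 gave -0.72 with adjusted p = 0.0362, past the threshold, but it called 204 of the 13364 genes (1.53%) in this comparison, against 2 with edgeR. Over 18 alternatives the adjusted p ran from 0.0362 to 0.449. Kif20a, a kinesin of the central spindle, was at 24.4, 40.2, 28.3, 23.5 and 26.99 CPM in wild type and 29.1, 17.2, 20.2, 18.04 and 19.01 CPM in cre, with overlap (log2 fold change -0.47, adjusted p = 0.364, edgeR). Prc1 was at 19.4, 23.6, 20.6, 18.03 and 10.1 CPM and 14.2, 13.02, 7.200, 9.02 and 18.5 CPM, also with overlap.

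Cenpf was the other gene without overlap, at 11.5, 14.9, 12.2, 12.9 and 13.2 CPM in wild type and 6.604, 5.92, 5.04, 8.201 and 9.74 CPM in cre. Its log2 fold change was -0.84 (SE 0.23, 95% interval -1.34 to -0.34), with adjusted p = 0.217 (edgeR). In all, 2 genes were lower in cre without overlap, as were 1.41% of all genes tested, and 0 were higher (1.47% of all). The remaining 5 kinetochore genes lay between -1.003 and -0.06. Spc25 was at 5.98, 8.66, 6.33, 3.29 and 0.529 CPM in wild type and 3.42, 1.18, 2.64, 2.46 and 2.67 CPM in cre, where the lowest value of all was the small wild-type replicate 5.

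Mki67 was at 60.8, 51.8, 42.7, 53.4 and 31.2 CPM in wild type and 35.96, 24.3, 34.1, 35.9 and 48.7 CPM in cre, and Top2a at 49.3, 47.1, 38.6, 48.5 and 20.6 CPM and 32.8, 33.7, 23.8, 26.4 and 32.5 CPM. In both genes wild-type replicates 1 to 4 held the higher values, apart from cre replicate 5 in Mki67, and wild-type replicate 5 was among the lowest. The log2 fold changes were -0.42 (SE 0.19, 95% interval -0.84 to -0.003) and -0.47 (SE 0.21, 95% interval -0.93 to -0.02), with adjusted p of 0.393 and 0.3799 (edgeR). Plk1, a kinase of mitotic entry and exit, was at 5.74, 6.67, 6.01, 5.15 and 3.704 CPM in wild type and 1.71, 4.74, 1.44, 3.69 and 4.399 CPM in cre.

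The other roles lay mostly below 0 too, with no unadjusted p under 0.05 (edgeR). All 8 spindle genes lay below 0, from -0.88 to -0.22, among them Kif4 (-0.88), Hmmr (-0.67) and Tpx2 (-0.52). All 5 entry genes lay between -0.51 and -0.15, and the 3 checkpoint genes between -0.82 and -0.31. Cdca8 was at 7.18, 5.11, 4.43, 5.15 and 1.06 CPM in wild type and 9.78, 8.29, 3.36, 6.29 and 5.66 CPM in cre, while its partners in the passenger complex, Birc5 and Aurkb, were at -0.63 and -0.55. The interval of each of these genes included 0.

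Markers of other cells also moved between these aortas. The 10 fibroblast markers summed to 24082 to 31953 CPM in wild type and 15761 to 27580 CPM in cre, with 9 of 10 below 0 and 5 at an unadjusted p under 0.05 (edgeR). The 10 heart muscle markers summed to 716 to 3127 CPM in wild type and 854 to 7345 CPM in cre. All 10 lay above 0, with a median log2 fold change of 1.19 and 5 at an unadjusted p under 0.05 (edgeR). The 10 adipocyte markers summed to 893 to 5174 CPM in wild type and 1692 to 5957 CPM in cre. Of these, 9 were tested and all 9 lay above 0, with a median of 0.75 and 1 at that level. No marker of these 3 lists passed the adjusted threshold. Without the 3 aortas of highest adipocyte level (wild-type replicate 5 and cre replicates 3 and 4), a choice made after the values were seen, the median log2 fold change of the mitotic genes was -0.40, with 33 of 38 below 0. Without the 2 small libraries it was -0.54, with 36 below 0. The part of the fibroblast and heart muscle content in the mitotic values was not tested.

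**Figure D4:**
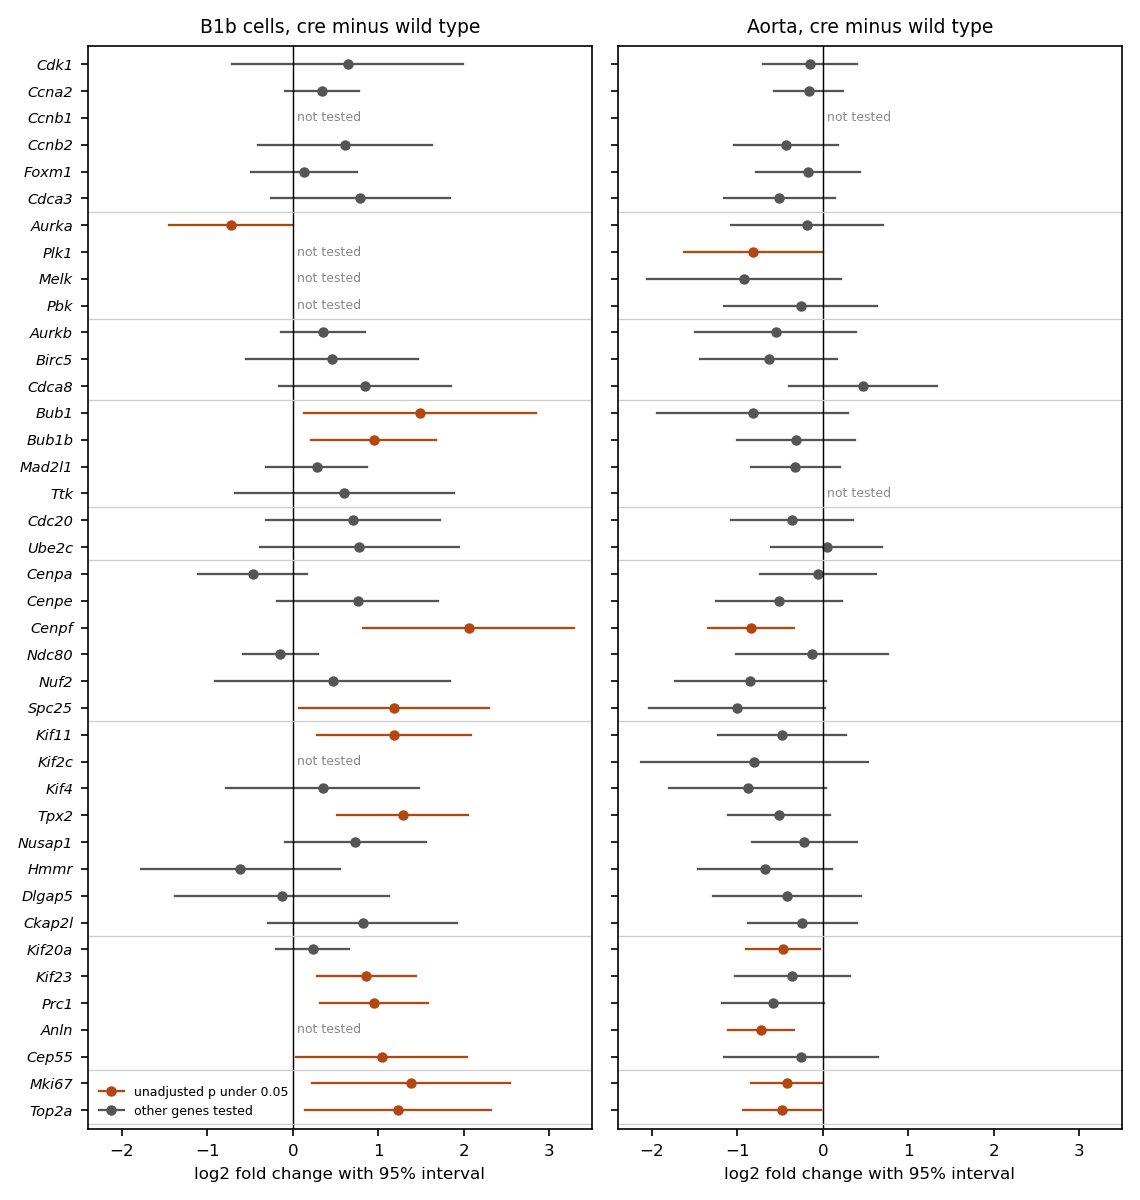
Log2 fold change, cre minus wild type, with its 95% interval for each gene in order of role, in B1b cells (left) and aortas (right), with genes of an unadjusted p under 0.05 in orange (edgeR). Values lie mostly above 0 on the left and below 0 on the right.

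The genotype effect in B1b cells minus that in aortas was above 0 for 37 of the 40 genes (45.6% of all genes tested, with 54.4% below 0), with a median of 1.14 against -0.05 over all genes. None passed (0 of 40, against 0.0199% of 15091 genes, 0.00663% above 0 and 0.0133% below, edgeR interaction term over 16 libraries), and 14 had an unadjusted p under 0.05, all above 0 (4.94% of all genes, and 6.18% below 0). Mki67 and Cenpf had the smallest adjusted p. Mki67 had a difference of 1.78 (SE 0.38, 95% interval 0.99 to 2.58) and adjusted p = 0.1400 (edgeR). Cenpf had 2.88 (SE 0.62, 95% interval 1.57 to 4.19) and adjusted p = 0.1400 (edgeR). Anln and Top2a followed with 1.89 and 1.70, both at adjusted p = 0.161 (edgeR).

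DESeq2 called 5 of these (Cenpf, Mki67, Anln, Top2a and Tpx2, adjusted p 0.00413 to 0.0387), where it called 1.15% of all genes. The median difference was 0.57 without B1b cre replicate 3, with 31 of 40 above 0 and 0 called (edgeR). Of the 33 genes tested in both tissues, 26 were above 0 in B1b cells and below 0 in aorta, 5 were below 0 in both (Aurka, Hmmr, Cenpa, Ndc80 and Dlgap5) and 2 above 0 in both (Cdca8 and Ube2c). The 2 tissues share no library.

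Wild-type B1b cells held less of most of the 40 transcripts than wild-type aortas. The 2 genes that passed as higher were both centromere or kinetochore genes, and 9 genes missed the threshold. Of 40 genes, 29 were lower in B1b cells and 2 higher at an adjusted p of 0.05 (edgeR, 14339 genes), where 40.4% of all genes were lower and 35.4% higher. The groups did not overlap in 22 of the lower genes (38.5% of all genes) and both higher ones (33.9%). The median log2 difference, B1b minus aorta, was -1.41 over the 40 and -0.09 over all genes. A level here is relative to all other transcripts of a sample, which differ widely between sorted cells and a whole tissue.

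Anln differed most. It was at 1.05, 0.512 and 0.984 CPM in B1b cells against 83.5 ± 21.1 CPM (SD, n = 5) in aorta, a log2 difference of -6.54 (SE 0.32, 95% interval -7.23 to -5.85) with adjusted p = 1.58e-09 (edgeR). Cdk1 was lower at 0.523, 1.28 and 1.64 CPM against 16.5, 8.89, 8.07, 10.6 and 7.41 CPM, with -3.11 (SE 0.43, 95% interval -4.04 to -2.18) and adjusted p = 2.59e-05 (edgeR). The aortic range of Cdk1 began well above the B1b range. Cenpf differed by -2.89 (SE 0.34, 95% interval -3.63 to -2.15), from 1.71 ± 0.906 CPM (SD, n = 3) in B1b cells to 12.9 ± 1.28 CPM (SD, n = 5) in aorta, and adjusted p = 6.45e-06 (edgeR).

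Both partners of the anaphase-promoting complex were lower in B1b cells. Ube2c was at 1.701, 1.02 and 1.75 CPM against 8.14, 6.89, 8.54, 4.29 and 8.995 CPM, and Cdc20 at 2.09, 2.05 and 1.75 CPM against 5.27, 12.2, 8.700, 7.01 and 5.29 CPM (log2 difference -2.23 and -1.957, adjusted p = 0.000219 and 0.000433, edgeR). Among the entry genes 5 of 6 were lower, with Ccnb2 at -1.40, Cdca3 at -1.55 and Ccna2 at -0.85. Of the spindle genes 7 of 8 were lower, from -2.59 (Kif2c) to -1.07 (Kif11). Prc1 (-1.89) and Kif20a (-0.81) joined Anln among the lower cytokinesis genes. Mki67 and Top2a were also lower, with log2 differences of -0.80 and -1.24.

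The 2 genes that passed as higher in B1b cells were Cenpa and Ndc80. Cenpa stood at 16.9, 18.7 and 17.6 CPM in B1b cells and 11.7, 7.998, 12.97, 9.87 and 7.41 CPM in aorta, higher by 0.83 (SE 0.22, 95% interval 0.36 to 1.30) with adjusted p = 0.00383 (edgeR). Per length it was the most abundant gene of the set in wild-type B1b cells, at 12.1 CPM per kilobase. Ndc80 stood at 11.4, 10.6 and 12.7 CPM in B1b cells and 7.42, 2.67, 3.95, 2.72 and 5.29 CPM in aorta, higher by 1.46 (SE 0.33, 95% interval 0.74 to 2.19) with adjusted p = 0.001497 (edgeR). Nuf2 and Spc25, which form 1 complex with Ndc80, were lower in B1b cells, with log2 differences of -1.71 and -1.89. Per length, wild-type B1b cells held Ndc80 at 5.25, Spc25 at 0.893 and Nuf2 at 0.692 CPM per kilobase, and wild-type aortas held them at 2.004, 3.25 and 2.31.

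The 9 genes that missed were Foxm1, Aurka, Aurkb, Cdca8, Mad2l1, Ttk, Dlgap5, Kif23 and Cep55, with log2 differences from -1.11 to 0.64. Aurkb was at 7.196, 9.34 and 9.95 CPM in B1b cells and 5.98, 6.67, 3.796, 8.58 and 2.65 CPM in aorta. Several calls rested on few libraries: Ccnb1, Plk1, Bub1 and Kif4 missed the threshold when 1 library was left out, whereas Ndc80 and Cenpa passed in all 12 alternatives (edgeR and DESeq2).

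**Figure D5:**
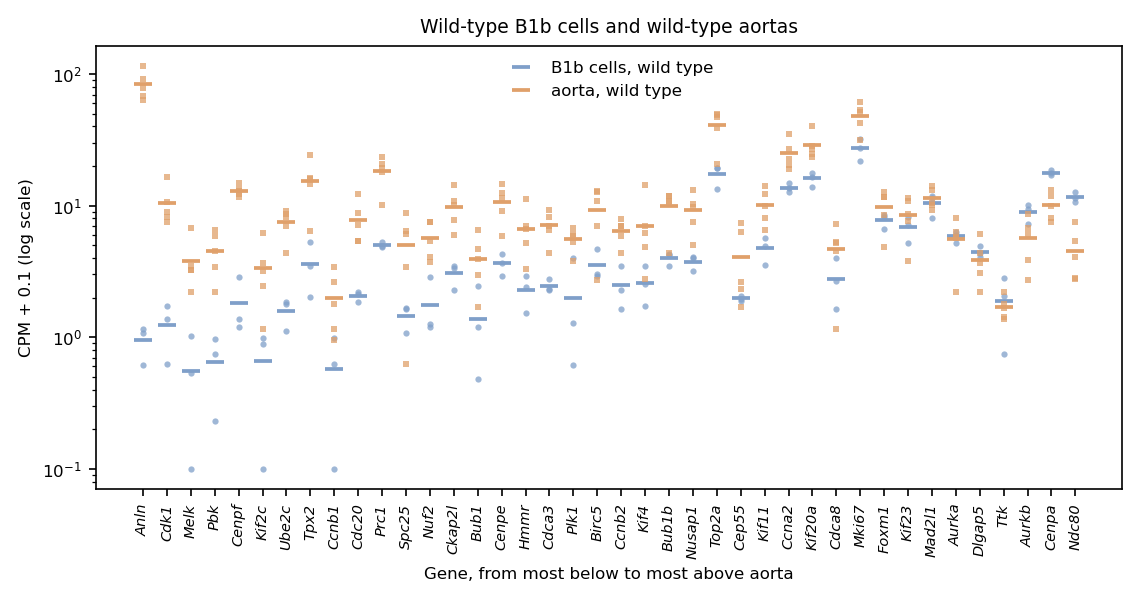
CPM + 0.1 on a log axis for each gene in the 3 wild-type B1b libraries (blue) and the 5 wild-type aortas (orange), with a bar at each group mean, in order of the log2 difference. Anln at the left shows the widest gap, and only Ndc80 and Cenpa at the right lie higher in B1b cells without overlap.

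Other genes of the cell cycle were taken from lists written with earlier results of these data known. Of 60 other mitosis and G2/M genes, 47 were tested in B1b cells between the genotypes and 0 passed, with 35 above 0 and a median log2 fold change of 0.39. The smallest adjusted p were those of Aspm (1.04, adjusted p = 0.0838), Ckap2 (1.90, 0.127) and Racgap1 (0.39, 0.155, edgeR). Cre replicate 3 was highest in 31 of these 47. For this count and the like count of replication genes, the share over all genes tested is the one given above for cre replicate 3. Of 45 DNA replication and G1/S genes, all were tested and 0 passed, with 31 above 0 and a median of 0.12, and cre replicate 3 was highest in 24. Their summed level reached 1357 CPM in cre replicate 3, against 1024 to 1166 CPM elsewhere in B1b cells, so that library was also highest for genes of the preceding phase, by less. The 17 genes listed for the anaphase-promoting complex were its subunits and the partners or regulators Fzr1, Ube2s and Fbxo5. They had a median of -0.03 and the 12 DREAM and MuvB genes tested 0.03, with 0 passed in either. Of the 14 inhibitors and quiescence genes tested, 1 passed: Trp53inp1, a p53 target, was higher in cre by 0.40 (adjusted p = 0.0287, edgeR).

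In aortas 43 of the other mitosis genes were tested and 0 passed, with 35 below 0 and a median of -0.32. Ncapg2, a condensin II subunit, had -0.88 with adjusted p = 0.156 (edgeR). The 43 replication genes tested had a median of -0.03, with 20 above 0 and 23 below. Between the wild-type tissues 35.4% of all genes were higher in B1b cells and 40.4% lower (edgeR, adjusted p under 0.05). Of the other mitosis genes 55 were tested, with 12 higher, 17 lower and a median of -0.32. The summed level of that list was 877 to 919 CPM in wild-type B1b cells and 422 to 614 CPM in wild-type aortas. Of the 45 replication genes 23 were higher and 2 lower, with a median of 0.56. Among them E2f2, Pold1 and Ccne1 had the smallest p, with log2 differences of 2.98, 2.41 and 3.61. Of the 13 DREAM and MuvB genes, 8 were higher in B1b cells and 2 lower, against 35.4% and 40.4% of all genes, with a median of 1.01.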

How the data were processed

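RNA was sequenced from sorted peritoneal B1b cells (gated on surface markers by the labels) and from frozen whole aortas, with a KAPA mRNA library kit, per the labels' protocols. The authors deposited 1 table of raw read counts for 35745 transcripts in 16 libraries. The submitters' processing notes name CASAVA 1.8.2, STAR 2.5.2b and mm10; for the counting tool, the annotation release and strandedness the entry is: not given in the sources used here.

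RefSeq named 35440 transcripts and GENCODE 188, and the 117 left unnamed were kept as entries of their own. The transcript of highest total count was kept for each gene; 12 of the 40 genes had more than 1. CPM used 1 TMM scaling over all 16 libraries, and log2 CPM a prior count of 2. Genes passing edgeR's filterByExpr were tested by the quasi-likelihood test (edgeR 4.0.16, R 4.3.3), within a tissue for genotype, over wild types for tissue and over all libraries for the interaction, with Benjamini-Hochberg adjustment over all genes tested and a threshold of 0.05. Scripts were tested on simulated data. Groups came from the labels; replicate numbers follow accession order.

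Alternatives were other size factors, no filter, the transcript of lowest total count, DESeq2 1.42.0, limma 3.58.1 (voom with quality weights), all libraries in 1 fit, each library left out, the small libraries left out, and, added after the data were seen, the 3 aortas of highest adipocyte level left out and genes with over 10% of exon bases shared with other genes left out. All 40 genes were accounted for by role, those described one by one having been picked with their values in view. Of each other cell cycle list, genes past the threshold and up to 3 of smallest p in a comparison could be named, and cell type markers only beside a result they moved with. The 40 genes and all lists were chosen with earlier results of these data known.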

Additional observations from a re-analysis of the deposited data

Results flagged for a closer look

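In each aorta group of 5 libraries, a library was singled out where its gap to the nearest other, divided by the range of the group, was above Dixon's 95% critical value. Chance does this in about 1 in 20 groups, and 4 of the 82 group values examined did so.

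Bub1b, a checkpoint gene, stood at 4.23 CPM in wild-type aorta replicate 5, one of the small libraries, and at 10.6 to 11.8 CPM in the other 4. Kif20a stood at 40.2 CPM in wild-type replicate 2, against 23.5 to 28.3 CPM in the other 4, and at 29.1 CPM in cre replicate 1, against 17.2 to 20.2 CPM. Melk, a mitotic kinase, stood at 6.67 CPM in wild-type replicate 2 and at 2.12 to 3.35 CPM in the other 4.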

How the results depend on the processing

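In B1b cells the number of the 40 genes past the threshold was 0 with the test reported, 4 with no filter on low counts (Cenpf, Kif11, Tpx2 and Kif23), 1 with DESeq2 (Cenpf), 1 with limma-voom and quality weights (Mki67) and 0 to 1 when each library was left out in turn. Of all genes, 0.707% passed with the test reported, 1.69% with no filter, 1.67% with DESeq2 and 0.673% with limma-voom. The number was 1 without cre replicate 2 (Cenpf, with 0.344% of all genes) and 1 without cre replicate 3 (Mki67, with 0.847%). Over 13 alternatives the median log2 fold change ran from 0.21, without cre replicate 3, to 0.996. Dlgap5 ran from -0.85 to 0.37 as libraries were left out, with 0.37 without cre replicate 2. In aortas DESeq2 called 1 of the 38 genes tested (Anln) and 1.53% of all genes, where edgeR called 0.015% of all, and the median stayed between -0.54 and -0.38 over 19 alternatives. Ube2c, at 0.04, turned to -0.11 without wild-type replicate 4 and to -0.16 without cre replicate 3, over a range of -0.16 to 0.19. For the difference between tissues in the genotype effect DESeq2 called 5 genes and 1.15% of all (edgeR 0.0199%), and the median was 0.57 without B1b cre replicate 3. The cause of these changes was not tested. Between the wild-type tissues 2 to 3 genes were higher in B1b cells and 25 to 31 lower over 13 alternatives. No paired analysis was possible because the labels give no replicate numbers that join libraries across groups. Precision is limited by counts: 20 of the 40 genes had fewer than 10 counts in each of the small aortas, and up to 12 in a B1b library.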
